A study of Mus musculus with 3 samples.

Results

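The genes described here encode the machinery that carries proteins between the endoplasmic reticulum (ER) and the Golgi apparatus. They are 45 genes of the 17997 listed in the data, chosen by name: 12 of the COPII coat and its assembly, 11 of the COPI coat and its ARF GTPases, 15 cargo and retrieval receptors, and 7 SNAREs and tethers. The choice was made with earlier results of these data known, so their counts beside all genes are descriptions only. Total RNA of 46C mouse embryonic stem cells (strain 129), grown on gelatin with serum and leukemia inhibitory factor, was sequenced. The 3 groups are cells that received an empty PB vector and were collected at passage 2 (empty vector P2), cells that received Lef1 (PB-Lef1) and were collected at passage 2 (Lef1 P2), and Lef1 cells collected at passage 5 (Lef1 P5). Each group has n = 1 library, so no test between groups was possible and genes are called by size of difference alone. The labels do not say whether the transfected cells were pools or clones. Levels are FPKM values (fragments per kilobase of transcript, scaled to library size), and 3 values in a row are in the order empty vector P2, Lef1 P2, Lef1 P5. Lef1 itself, whose product partners beta-catenin on DNA, was at 1.49, 135 and 214 FPKM, high in the libraries labelled as having received it.

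COPII vesicles bud from the ER when the GTPase Sar1, loaded by its exchange factor Preb (Sec12), recruits the inner coat Sec23-Sec24 and the outer coat Sec13-Sec31 at exit sites marked by Sec16. Sec24 reads sorting signals on cargo, and membrane receptors link soluble cargo to it. COPI vesicles, formed by ARF GTPases and the coatomer complex, return escaped ER proteins and receptors from the Golgi. Tethers and SNAREs then dock and fuse the vesicles. Cells that secrete much matrix, such as those laying down basement membrane, depend heavily on this traffic.

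All 45 genes were listed in every library, with levels from 3.21 to 202 FPKM in empty vector P2, 13.2 to 261 FPKM in Lef1 P2 and 3.87 to 206 FPKM in Lef1 P5. Their summed level was 1873 FPKM in empty vector P2, 2904 FPKM in Lef1 P2 and 1898 FPKM in Lef1 P5. These sums are 0.377%, 0.594% and 0.376% of all FPKM in the libraries. Lef1 P2 had the highest level of the 3 libraries for 42 of the 45 genes, against 49.7% of all genes at 3 FPKM and 20 reads in their highest library. The exceptions were Copz1, Sec23b and Trappc3. Lef1 P5 and empty vector P2 had almost the same sum. In bulk RNA, more cells of a type and more RNA per cell cannot be told apart.

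**Figure D1:**
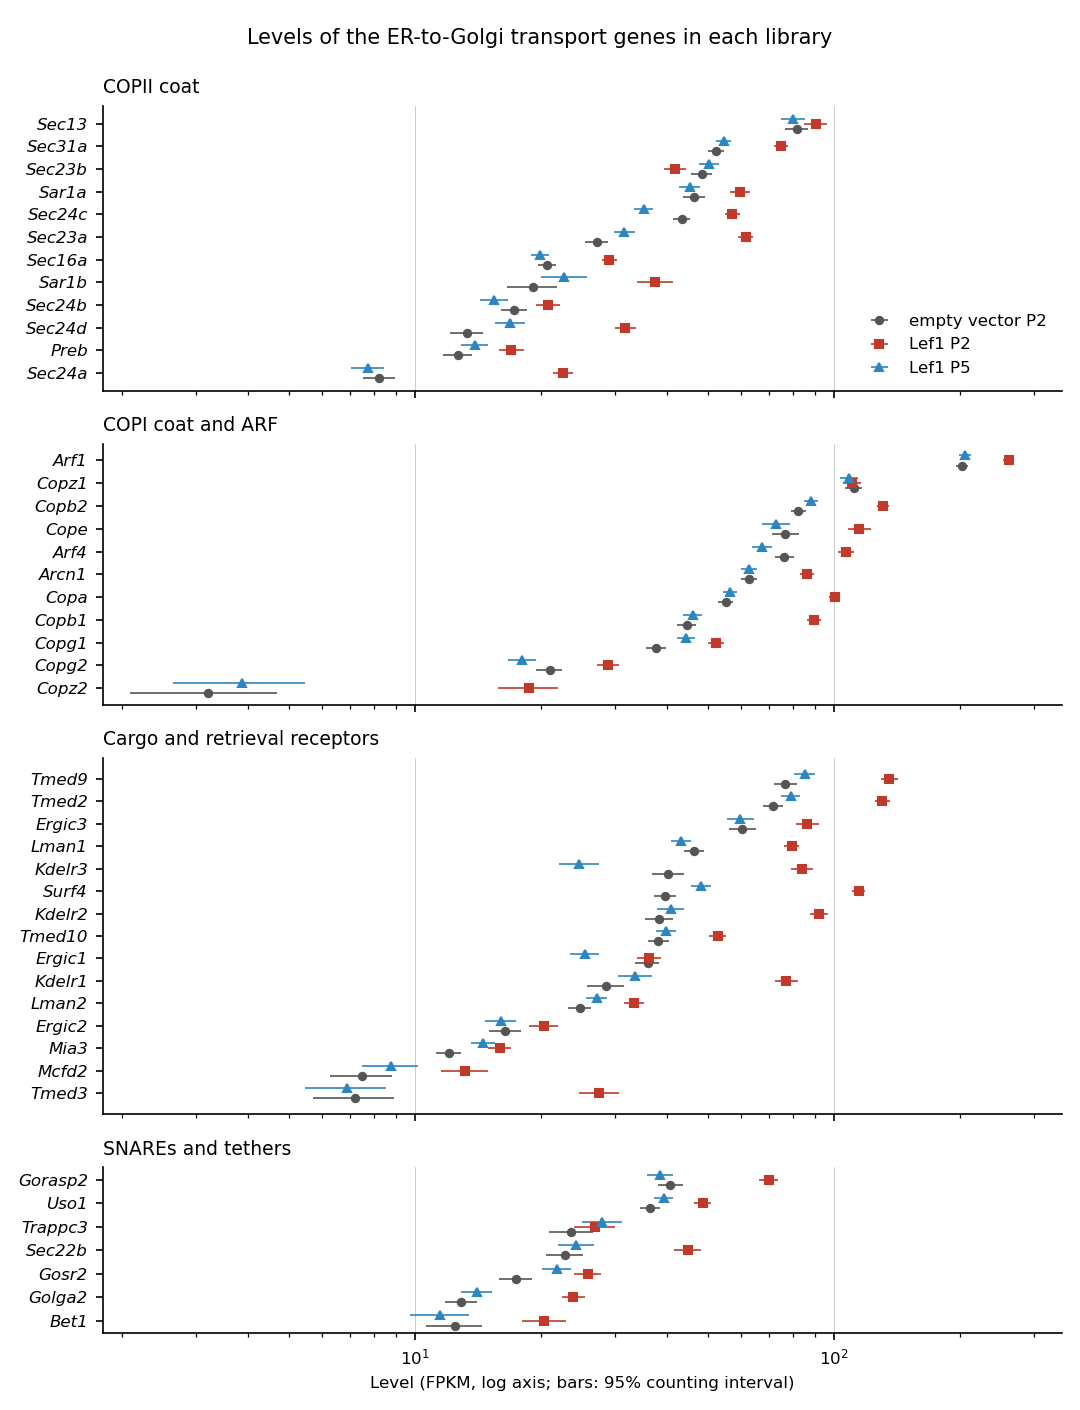
Level of each gene (FPKM, log axis) in empty vector P2 (circles), Lef1 P2 (squares) and Lef1 P5 (triangles), in 4 panels by role, with bars for the 95% counting interval. The squares lie to the right of the other symbols for 42 of the 45 genes, while circles and triangles lie close together.

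Genes count as higher or lower where the ratio on the log2(FPKM + 1) scale reached 2-fold (or, as a second rule, 1.5-fold), with at least 3 FPKM and 20 reads in the higher library. In Lef1 P2 against empty vector P2, 9 of the 45 genes were higher by 2-fold, against a background of 6.49% of the 10651 genes that met the minimum. At 1.5-fold, 21 of 45 were higher, against 17.5% of those genes. None was lower by either rule, against 1.82% and 8.03% of all genes. The median log2 ratio of the 45 genes was 0.54, beside 0.11 for all 12894 genes that reached 1 FPKM in any library. By role, this median was 0.44 for the COPII coat, 0.48 for COPI and ARF, 0.76 for the receptors and 0.67 for SNAREs and tethers. The receptors held 5 of the 9 genes at 2-fold (Tmed3, Surf4, Kdelr1, Kdelr2 and Kdelr3), COPII held 3 (Sec24a, Sec24d and Sec23a) and COPI held 1 (Copz2). With TMM or median-of-ratios scaling 7 of the 9 were still called (4.82% and 4.77% of all genes), and Sec23a and Kdelr3 were not.

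In Lef1 P5 against empty vector P2, none of the 45 genes was higher or lower by 2-fold, against 1.40% and 1.28% of all genes. At 1.5-fold none was higher and only Kdelr3 was lower, against 4.31% and 5.95% of all genes. The plain ratio of FPKM lay within 1.25-fold for 41 of the 45 genes, and the median log2 ratio was 0.06, beside -0.02 for all genes. In Lef1 P5 against Lef1 P2, 7 of 45 were lower by 2-fold (6.86% of all genes) and 23 of 45 by 1.5-fold (20% of all genes), and none was higher (1.88% and 7.98%). The 23 became 14 with median-of-ratios scaling (12.2% of all genes) and 15 with TMM scaling (12.8%). Each pair of these 3 comparisons shares a library, so they are not separate evidence. Passage and time since the introduction of Lef1 cannot be told apart in Lef1 P5, since the only empty-vector library is from passage 2.

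**Figure D2:**
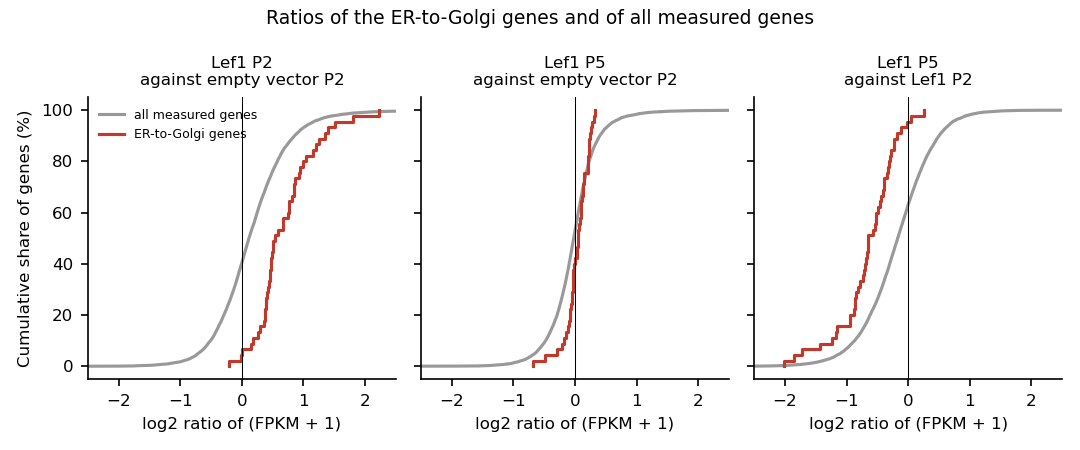
Cumulative share of genes (%) against the log2 ratio of (FPKM + 1) for the 45 ER-to-Golgi genes and for all 12894 measured genes, in the 3 comparisons. The curve of the ER-to-Golgi genes lies to the right of all genes in Lef1 P2 against empty vector P2, to the left in Lef1 P5 against Lef1 P2, and near 0 in Lef1 P5 against empty vector P2.

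Promoters were searched for words that ER stress-response transcription factors are known to bind. RefSeq promoter windows (GRCm38.p6, 250 bases before to 50 after the start site) were at hand for 41 of the 45 genes. The word TGACGTGG, the core of the unfolded protein response element, occurred on either strand in 6 of the 41 genes (14.6%), beside 0.714% of all 27025 genes with a window and 1.03% of the 10284 of them that reached 1 FPKM. Its shorter core TGACGT, which every TGACGTGG also holds, occurred in 15 of 41 (36.6%), beside 8.37% of all genes and 13.1% of those at 1 FPKM. The ER stress element, CCAAT and CCACG spaced 9 bases apart, was in none of the 41 and in 0.137% of all genes. A match is a run of letters and not a shown binding site. The 6 stretches that hold the word are printed so that its orientation and the bases beside it can be read, 5′ to 3′ on the gene's own strand, with the word in capitals (CCACGTCA is the same word on the other strand):
Sec23a: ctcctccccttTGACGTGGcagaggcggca
Sec24d: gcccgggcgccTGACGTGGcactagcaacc
Arf1: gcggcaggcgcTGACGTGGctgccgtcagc
Copb1: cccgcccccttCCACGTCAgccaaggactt
Copb2: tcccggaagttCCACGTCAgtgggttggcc
Kdelr3: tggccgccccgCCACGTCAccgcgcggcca

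In GRCm38.p6 these stretches lie at chr12:59011993-59012022 (minus strand) for Sec23a, chr3:123267459-123267488 (plus) for Sec24d, chr11:59228228-59228257 (minus) for Arf1, chr7:114254690-114254719 (minus) for Copb1, chr9:98563713-98563742 (plus) for Copb2 and chr15:79516367-79516396 (plus) for Kdelr3. With the start site as base 1, the word began 84 bases before it in Arf1, 30 in Kdelr3, 28 in Copb1, 26 in Sec24d and 7 in Copb2, and at base 7 after it in Sec23a. Arf1 has another listed start site, and the same word lies after that one. The 6 genes with the word had log2 ratios from 0.37 to 1.20 in Lef1 P2 against empty vector P2 (median 1.02), and the 35 without it from -0.21 to 2.23 (median 0.48). The first range lies within the second. With the shorter core TGACGT the median was 0.54 (n = 15) and without it 0.51 (n = 26). Surf4, Tmed3 and Sec24a, among the largest ratios, had no TGACGTGG in their windows.

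The COPII inner coat was higher in Lef1 P2 through particular paralogues. Sec23a, the inner-coat GTPase activator linked to collagen secretion, was at 27.2 FPKM in empty vector P2, 61.5 FPKM in Lef1 P2 and 31.6 FPKM in Lef1 P5. It was 2.26-fold higher in Lef1 P2 than in empty vector P2 (95% counting interval 2.10 to 2.44) and 1.16-fold (1.07 to 1.27) in Lef1 P5, and its 2-fold call was lost with TMM or median-of-ratios scaling. Its paralogue Sec23b was at 48.3, 41.8 and 50.3 FPKM, and so was the only gene of the 45 whose counting interval against empty vector P2 lay below 1 in Lef1 P2 (0.864-fold, 0.795 to 0.939). Sec23a accordingly made up 36.0%, 59.6% and 38.6% of the Sec23 sum. The order of the 2 paralogues was reversed in Lef1 P2 alone.

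Among the cargo-reading Sec24 subunits, Sec24a was at 8.22, 22.6 and 7.73 FPKM, 2.75-fold higher in Lef1 P2 (2.48 to 3.05). Sec24d was at 13.3, 31.8 and 16.9 FPKM, 2.39-fold higher in Lef1 P2 (2.15 to 2.67), and kept a 1.27-fold difference in Lef1 P5 (1.13 to 1.44). The other pair differed less: Sec24b was at 17.2, 20.8 and 15.4 FPKM and Sec24c at 43.3, 57.2 and 35.2 FPKM. Sec24c, the most abundant Sec24 gene in all 3 libraries, held 52.8% of the Sec24 sum in empty vector P2 and 43.2% in Lef1 P2. Sec24a moved from the lowest of the 4 levels in empty vector P2 to a level above that of Sec24b in Lef1 P2. Sec24a and Sec24b form 1 related pair and Sec24c and Sec24d the other, so the larger differences fell on 1 member of each pair.

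The GTPase Sar1b was at 19.1 FPKM in empty vector P2, 37.5 FPKM in Lef1 P2 and 22.8 FPKM in Lef1 P5. Sar1a was at 46.4, 59.7 and 45.2 FPKM. Sar1b, the form needed for export of lipoprotein particles, was 1.96-fold higher in Lef1 P2 (1.65 to 2.32) against 1.29-fold for Sar1a (1.19 to 1.39), and its share of the Sar1 sum was 29.2%, 38.5% and 33.5% in the 3 libraries. The counting intervals of the 2 ratios do not overlap.

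The remaining COPII genes differed by less than 1.5-fold. Sec13, the outer-coat subunit that is also part of the nuclear pore and had the highest level of this group, was at 81.5, 90.4 and 80.0 FPKM. Its 1.11-fold difference in Lef1 P2 turned to a ratio below 1 with TMM or median-of-ratios scaling. Its outer-coat partner Sec31a was at 52.4, 74.7 and 54.5 FPKM, 1.43-fold higher in Lef1 P2 (1.35 to 1.51). The exit-site scaffold Sec16a and the Sar1 exchange factor Preb were 1.41-fold and 1.34-fold higher in Lef1 P2. In Lef1 P5 the counting intervals of Sec13, Sec31a, Sec16a and Preb all held 1.

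In the COPI group nearly every coatomer subunit was higher in Lef1 P2, by unequal amounts. Copb1 (beta-COP) was at 44.6 FPKM in empty vector P2, 89.7 FPKM in Lef1 P2 and 46.1 FPKM in Lef1 P5, a plain ratio of 2.01 (1.88 to 2.15) that missed the 2-fold rule on the log2(FPKM + 1) scale at 0.99. Copa (alpha-COP) was at 55.2, 100.3 and 56.5 FPKM, 1.82-fold higher in Lef1 P2 (1.73 to 1.91). Copb2 (beta-prime-COP) was at 82.2, 130.9 and 88.1 FPKM, 1.59-fold higher (1.51 to 1.68). These 3 genes encode the alpha, beta and beta-prime subunits and had the 3 largest ratios of the single-gene subunits.

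Cope (epsilon-COP) had levels of 76.6, 115 and 72.8 FPKM, 1.5-fold higher in Lef1 P2. Arcn1 (delta-COP) had levels of 62.8, 86.4 and 62.7 FPKM, 1.38-fold higher. Summed over paralogues, the gamma subunit (Copg1 and Copg2) was at 58.6, 81.3 and 62.5 FPKM. The zeta subunit (Copz1 and Copz2) was at 115, 129 and 113 FPKM. From beta at 2.01-fold to zeta at 1.13-fold, the subunits of this equimolar complex had unequal ratios in these libraries. Whether cultures alone differ this much was not measured.

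Copz1 was the steadiest gene of the 45, at 111, 111 and 109 FPKM, and the only one whose 3 levels lay within 1.1-fold. Its paralogue Copz2 was at 3.21 FPKM in empty vector P2, 18.7 FPKM in Lef1 P2 and 3.87 FPKM in Lef1 P5. That is the largest ratio among the 45 genes, 5.83-fold, with a wide interval (3.83 to 9.21) because it rests on 26 reads against 150. Copz2 was the least abundant of the COPI genes in each library, and it made up 2.80%, 14.5% and 3.43% of the zeta sum. Copg1 was at 37.6, 52.4 and 44.5 FPKM and Copg2 at 21.0, 29.0 and 18.1 FPKM, with Copg1 holding 64.2%, 64.4% and 71.1% of the gamma sum.

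The GTPase genes were abundant throughout. Arf1, which recruits coatomer and had the highest level of all 45 genes, was at 202, 261 and 206 FPKM, 1.30-fold higher in Lef1 P2 (1.24 to 1.36). Arf4 was at 76.1, 106.8 and 67.3 FPKM, 1.40-fold higher in Lef1 P2 (1.31 to 1.5) and 0.884-fold in Lef1 P5 (0.818 to 0.954). Neither reached 1.5-fold against empty vector P2.

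**Figure D3:**
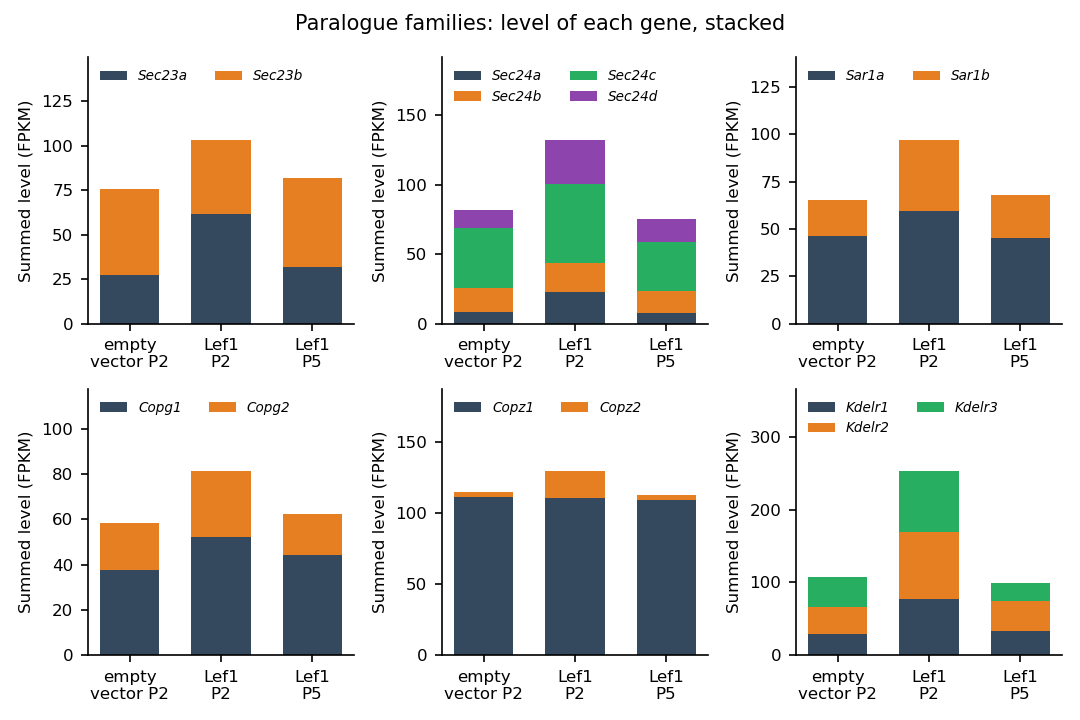
Stacked levels (FPKM, axes from 0) of the genes of 6 paralogue families in the 3 libraries. Sec23a overtakes Sec23b in Lef1 P2 alone, Copz2 is visible mainly in Lef1 P2, and the KDEL receptor genes are all higher there.

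Of the 4 roles, the receptors had the highest median ratio in Lef1 P2, and 9 of the 15 were higher by 1.5-fold. KDEL receptors bind the KDEL signal of soluble ER proteins in the Golgi and return them in COPI vesicles. Kdelr1 was at 28.6 FPKM in empty vector P2, 77.0 FPKM in Lef1 P2 and 33.5 FPKM in Lef1 P5, 2.70-fold higher in Lef1 P2 (2.4 to 3.04). Kdelr2 was at 38.2, 92.2 and 40.8 FPKM, 2.41-fold higher (2.20 to 2.65). Kdelr3 was at 40.3, 84.1 and 24.7 FPKM, 2.09-fold higher (1.88 to 2.33), a 2-fold call also lost with those 2 scalings or a pseudocount of 5 FPKM. All 3 receptor genes were highest in Lef1 P2, and their sum was 107 FPKM in empty vector P2, 253 FPKM in Lef1 P2 and 99.0 FPKM in Lef1 P5.

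Kdelr3 also differed between empty vector P2 and Lef1 P5, at 0.613-fold (0.531 to 0.707). It was the only one of the 45 genes beyond 1.5-fold in that comparison. Kdelr3 had the highest level of the 3 receptor genes in empty vector P2 (37.6% of their sum) and the lowest in Lef1 P5 (24.9%), while Kdelr1 went from 26.7% to 33.9%. The 1 other receptor gene with a clear lower level in Lef1 P5 was Ergic1, a membrane protein that cycles between ER and Golgi, at 35.9, 36.2 and 25.4 FPKM, or 0.708-fold (0.638 to 0.784) in Lef1 P5 and 1.01-fold (0.916 to 1.11) in Lef1 P2.

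Surf4, a cargo receptor for soluble secreted proteins, was at 39.5 FPKM in empty vector P2, 114.6 FPKM in Lef1 P2 and 48.3 FPKM in Lef1 P5, 2.9-fold higher in Lef1 P2 (2.70 to 3.12). Only Copz2 and Tmed3, both less abundant, had larger ratios. The lectin receptor Lman1 (ERGIC-53) was at 46.5, 79.3 and 43.2 FPKM, 1.71-fold higher in Lef1 P2 (1.59 to 1.83). Mcfd2, its partner in carrying coagulation factors, was at 7.47, 13.2 and 8.76 FPKM, 1.76-fold higher (1.43 to 2.18). The 2 partners thus had like ratios from unlike levels. Another lectin, Lman2, was at 24.8, 33.4 and 27.2 FPKM, 1.35-fold higher (1.24 to 1.47).

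TMED proteins of the p24 family carry GPI-anchored and other cargo, and the 4 of their genes among the 45 had unequal ratios. Tmed3 was at 7.19 FPKM in empty vector P2, 27.6 FPKM in Lef1 P2 and 6.88 FPKM in Lef1 P5, 3.83-fold higher in Lef1 P2 (3.01 to 4.94) on 84 against 319 reads. Tmed2 was at 71.5, 130.3 and 78.9 FPKM, 1.82-fold higher, and Tmed9 at 76.6, 135.6 and 85.1 FPKM, 1.77-fold higher. Tmed10 was at 38.1, 52.8 and 39.8 FPKM, 1.38-fold higher (1.28 to 1.49). The least abundant of these 4 genes had the largest ratio, and the 4 ratios ranged from 1.38 to 3.83. Outside the 45, the p24 genes Tmed1, Tmed4, Tmed5, Tmed7 and Tmed8 ranged from 1.02-fold to 1.46-fold in Lef1 P2. None of those was called at 1.5-fold. Across the 45 genes, which are not independent and share the libraries, Spearman's rho between level in empty vector P2 and log2 ratio was only -0.25, and -0.19 with the listed length.

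The other receptor genes differed little. Mia3 (TANGO1), which loads bulky collagens into COPII carriers at ER exit sites, was at 12.05 FPKM in empty vector P2, 15.9 FPKM in Lef1 P2 and 14.6 FPKM in Lef1 P5. It was 1.32-fold higher in Lef1 P2 (1.20 to 1.46) and 1.21-fold in Lef1 P5 (1.1 to 1.33), and its expected reads were not whole, so its level is less certain than the interval shows. Ergic3 was 1.43-fold and Ergic2 1.24-fold higher in Lef1 P2, and the intervals of both held 1 in Lef1 P5. Of 10 genes of basement membrane cargo, 7 were higher by 2-fold in Lef1 P2 (6.49% of all genes). The largest ratios were those of Col4a1, Col4a2, Lama1 and Lamb1. Col4a1 was at 17.0, 316 and 73.4 FPKM and Col4a2 at 9.73, 195 and 43.2 FPKM. Lama1 was at 24.0, 277 and 85.2 FPKM and Lamb1 at 31.6, 329.6 and 78.7 FPKM. Fn1, Nid1 and Nid2 differed by less than 1.5-fold in Lef1 P2. Fn1 was at 165.82, 174.86 and 87.55 FPKM. Nid1 was at 36.51, 52.9 and 35.08 FPKM and Nid2 at 104.93, 155.12 and 81.44 FPKM.

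Of the 7 SNAREs and tethers, 4 were higher by 1.5-fold in Lef1 P2 (Sec22b, Golga2, Gorasp2 and Bet1) and none by 2-fold. Sec22b, an ER-Golgi SNARE, was at 22.8, 44.8 and 24.2 FPKM, 1.97-fold higher in Lef1 P2 (1.73 to 2.23). The SNAREs Bet1 and Gosr2 were at 12.5, 20.4 and 11.5 FPKM and at 17.4, 25.9 and 21.8 FPKM. Golga2 (GM130), a cis-Golgi tether, was at 12.9, 23.9 and 14.0 FPKM, 1.85-fold higher (1.67 to 2.07). Gorasp2, a Golgi stacking protein, was at 40.7, 69.8 and 38.5 FPKM, 1.71-fold higher (1.57 to 1.87). The stacking protein and its cis-Golgi neighbour differed more than the vesicle tether Uso1 (p115), at 36.5, 48.6 and 39.2 FPKM and 1.33-fold (1.24 to 1.43). Trappc3, of the TRAPP tethering complex, was at 23.6, 26.9 and 28.0 FPKM, and its interval in Lef1 P2 held 1 (0.964 to 1.34). Of the 7 genes, Gosr2 stayed highest in Lef1 P5 relative to empty vector P2, at 1.25-fold (1.11 to 1.41).

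**Figure D4:**
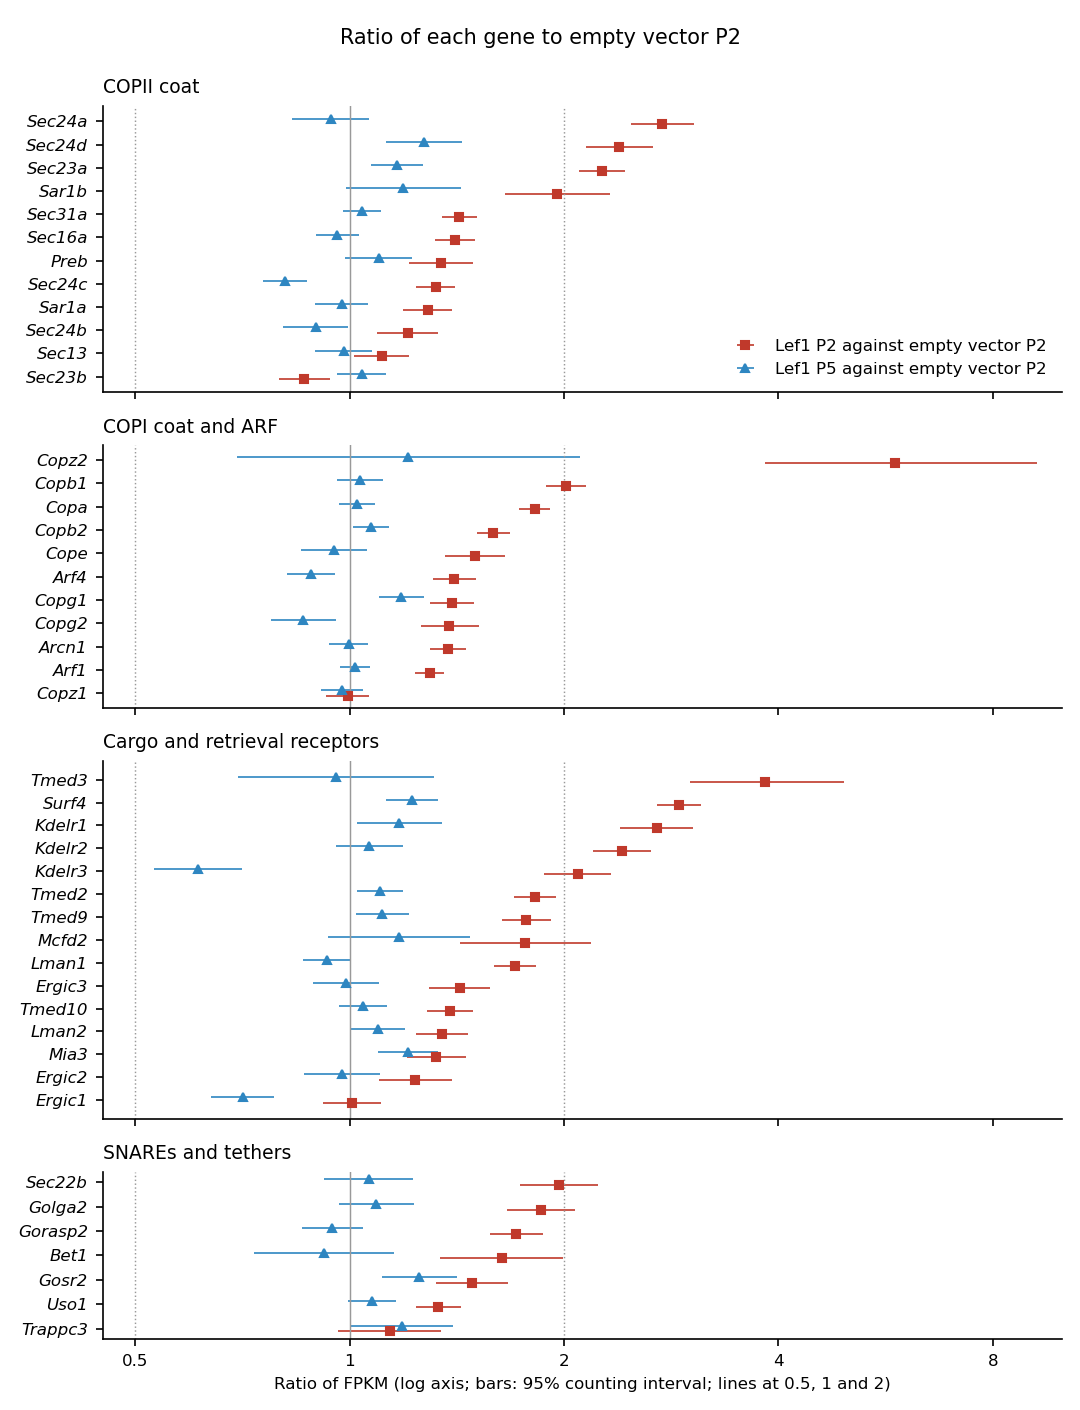
Ratio of FPKM to empty vector P2 (log axis) for Lef1 P2 (squares) and Lef1 P5 (triangles), with bars for the 95% counting interval and lines at 0.5, 1 and 2. The interval lies above 1 for 41 of 45 genes in Lef1 P2, and it spans 1 for 27 of 45 in Lef1 P5.

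By counting intervals, 41 of the 45 genes lay above empty vector P2 in Lef1 P2 (41% of all genes at the minimum did), Sec23b lay below it (27.2% of all genes), and Copz1, Ergic1 and Trappc3 could not be told from it at this depth. In Lef1 P5, 12 lay above empty vector P2 (23.1% of all genes), 6 below (28% of all genes) and 27 spanned 1, with ratios from 0.613 to 1.27. These intervals cover counting error only and leave out the difference between cultures, which 1 library per group does not measure.

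Other genes of the same pathway came from lists drawn up by function, and their counts in Lef1 P2 stand beside 17.5% of all genes higher by 1.5-fold and 6.49% by 2-fold. Of 11 further ARF genes and COPI regulators, 3 were higher by 2-fold and none lower: the ARF GTPase activators Arfgap1 (13.3, 40.2 and 15.7 FPKM) and Arfgap3 (6.34, 17.0 and 5.56 FPKM), which release the COPI coat, and the ARF exchange factor Arfgef1 (13.3, 28.7 and 15.9 FPKM). Of 40 further SNAREs, tethers and RABs, 10 were higher by 1.5-fold and none lower, with only Scfd1, a SNARE regulator, at 2-fold (12.2, 27.1 and 15.8 FPKM). Of 15 further receptors at the minimum level, 5 were higher by 1.5-fold and none by 2-fold. Of 10 further COPII genes, 7 met the minimum and none was higher or lower by 1.5-fold. The medians of these lists were 0.39 (ARF and COPI), 0.25 (SNAREs, tethers and RABs), 0.51 (receptors) and 0.29 (COPII), beside 0.11 for all genes.

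Steps before and after ER-to-Golgi transport gave unlike values. Their counts in Lef1 P2 stand beside 17.5% of all genes higher by 1.5-fold, 6.49% higher by 2-fold and 8.03% lower by 1.5-fold. Of 24 genes for entry into the ER, such as the Sec61 channel and the signal peptidase, 10 were higher by 1.5-fold in Lef1 P2, with a median of 0.42, and 1 by 2-fold: Tram1, which helps chains enter the membrane, at 21.98, 48.8 and 26.5 FPKM. Of 17 ER chaperones and folding enzymes, 4 were higher by 1.5-fold and 3 by 2-fold, with a median of 0.38. The 3 were Herpud1 (4.6, 18.7 and 8.73 FPKM), of ER-associated degradation, the co-chaperone Dnajc3 (9.65, 22.5 and 9.69 FPKM) and P4hb (153, 331 and 192 FPKM), a disulfide isomerase and collagen hydroxylase subunit. Clathrin, adaptor and retromer genes, which act after the Golgi, had 2 of 27 higher and 1 lower by 1.5-fold, and their median of 0.05 lay below that of all genes. The adaptor subunit Ap1m2, found in epithelial cells, was the 1 gene of that list at 2-fold (12.3, 31.3 and 19.3 FPKM). In Lef1 P5 against empty vector P2 the medians were 0.06, 0.02 and 0.15. These are descriptions, and the difference between lists was not tested.

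**Figure D5:**
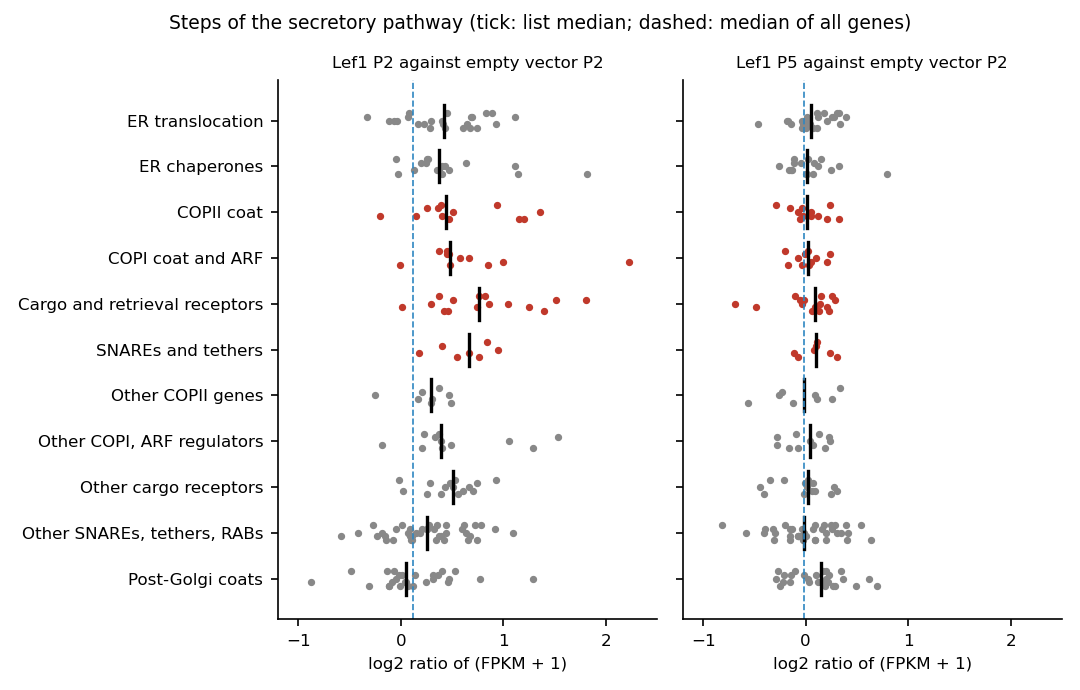
Log2 ratio of (FPKM + 1) of single genes (points) in lists ordered along the secretory pathway, for Lef1 P2 and Lef1 P5 against empty vector P2, with a tick at each list's median and a dashed line at the median of all genes. The 4 lists of the 45 genes (red) have medians from 0.44 to 0.76 in Lef1 P2, and post-Golgi coats lie at 0.05.

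Transcription factors known to drive secretory genes were listed as well. Creb3l2, whose product activates COPII genes such as Sec23a, was at 3.82 FPKM in empty vector P2, 21.0 FPKM in Lef1 P2 and 6.98 FPKM in Lef1 P5. Creb3 was at 4.48, 15.1 and 7.25 FPKM, and both were higher by 2-fold in Lef1 P2 (6.49% of all genes). Of 12 such genes 11 met the minimum, and 4 were higher by 1.5-fold in Lef1 P2 (17.5% of all genes) and none was lower. In Lef1 P5 against empty vector P2, 9 met the minimum. There Atf4, Creb3l2 and Creb3 were higher by 1.5-fold (4.31% of all genes) and Creb3l1 was lower (5.95%).

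Lists of cell type markers differed from one another. Of 9 endoderm markers, 8 were listed and all 8 were higher by 2-fold in Lef1 P2 (6.49% of all genes) and 5 of them in Lef1 P5 (1.40%). Their summed level was 13.4, 216 and 63.5 FPKM, and Afp was not listed in any library and taken as 0. Relative to empty vector P2 this sum was 16.2-fold in Lef1 P2 and 4.75-fold in Lef1 P5. The sum of the 45 transport genes was 1.55-fold and 1.01-fold in the same comparisons. Of 10 basement membrane genes, which encode secreted cargo, 7 were higher by 2-fold in Lef1 P2 (6.49%), as were 4 in Lef1 P5 (1.40%). In Lef1 P5 Fn1 was lower by 1.5-fold (5.95% of all genes). The largest endoderm ratios on the log2(FPKM + 1) scale were those of the transcription factors Gata4 (2.82, 66.0 and 16.3 FPKM), Gata6 (2.24, 46.3 and 20.3 FPKM) and Sox17 (0.57, 20.1 and 5.54 FPKM) and the endocytic receptor Cubn (2.68, 33.0 and 2.53 FPKM). All 8 stem cell markers were present in every library, with sums of 6430, 5878 and 6419 FPKM that are mostly Dppa5a (3771, 3818 and 3816 FPKM). In Lef1 P2 all 8 had log2 ratios below the median of all genes (0.11). Only Pou5f1, a core pluripotency factor, was lower by 1.5-fold there (1135, 704 and 1062 FPKM), against 8.03% of all genes. Sox2 and Zfp42 were at 0.757-fold and 0.773-fold of empty vector P2. Esrrb, Tdgf1, Klf4, Dppa5a and Nanog lay between 0.933-fold and 1.05-fold of it. Of 8 fibroblast and feeder markers, Postn and Lum were not listed and Col1a2, Col3a1 and Dcn lay at 0.23 FPKM or less throughout. The fibroblast list summed to 116, 64.5 and 151 FPKM, most of it from Vim. Vim and Thy1 were lower by 1.5-fold in Lef1 P2 (8.03% of all genes), and Thy1 was lower by 2-fold in Lef1 P5 (1.28%). The 4 neural markers summed to 11.3, 8.97 and 6.81 FPKM and the 4 trophoblast markers to 22.7, 77.0 and 30.6 FPKM. In Lef1 P2 against empty vector P2, 2 markers of each of these lists met the minimum. The trophoblast sum moved almost wholly with the keratin gene Krt8 (8.55, 61.3 and 19.2 FPKM). It was the 1 trophoblast marker higher by 2-fold in Lef1 P2 (6.49% of all genes), while Tfap2c was at 12.4, 12.3 and 9.96 FPKM. Of the neural markers Nes was higher by 2-fold in Lef1 P2 (2.2, 5.5 and 3.77 FPKM), against 6.49% of all genes. Neurod1 was lower by 2-fold there (7.95, 2.46 and 2.53 FPKM), against 1.82% of all genes. The part of endoderm or other cells in the transport values was not tested.

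Whether counting used strand is not stated, and without it overlapping genes on opposite strands cannot be told apart. In GENCODE M21, exons of Copg2 overlap 912 bases of Mest on the other strand, those of Preb 1575 bases of Abhd1, those of Ergic2 837 bases of Far2 and those of Surf4 144 bases of Surf2. Copa, Gorasp2 and Golga2 overlap coding genes by 195, 230 and 11 bases and Kdelr3 by 4. Levels of these genes are therefore less certain than their intervals show.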

How the data were processed

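Each of the 3 libraries has a deposited gene table, which per the file headers gives the Entrez number, transcript length, expected count and FPKM of each gene. The expected counts are the authors' estimates, not whole for 8.61%, 8.56% and 8.49% of listed genes, and sum to 9225401, 9170554 and 9380813 (order: empty vector P2, Lef1 P2, Lef1 P5). FPKM values were used as the authors deposited them. The submitters' processing notes name Bowtie 0.12.2 and the build mm8. No counting program or strand setting was given in the sources used here. A gene missing from a table was taken as 0, and 3 reads on 1 kb amount to 0.325, 0.327 and 0.320 FPKM.

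Symbols came from RefSeq (GRCm38.p6) for 17951 of 17997 numbers, and all 45 genes matched. Ratios were log2((x + 1)/(y + 1)) of FPKM. Intervals are exact 95% Poisson intervals and, for ratios, exact (Clopper-Pearson) intervals of the split of the expected counts. TMM factors came from edgeR 4.0.16 on rounded expected counts. Other work used Python 3.11.15 with pandas 2.3.3 and scipy 1.17.1. Calls and intervals were run on simulated Poisson counts, which hold no difference between cultures. The planted changes were larger than 2-fold, so calls near the limits were not tested. The 45 genes and all lists were chosen with earlier results of these data known. By rule, levels are printed for members beyond 1.5-fold in any comparison, the highest and lowest of each role, paralogue families and members within 1.1-fold, and for up to 4 genes of each other list beyond 2-fold in Lef1 P2 against empty vector P2. Sec31a, Sec16a, Arcn1, Lman2, Tmed10, Ergic1, Ergic2, Ergic3, Mia3, Gosr2, Trappc3, Pou5f1, Sox2, Zfp42, Dppa5a, Tfap2c and the fibroblast markers are named outside this rule, chosen after their values were seen. The same holds for Fn1, Nid1, Nid2, Esrrb, Tdgf1, Klf4, Nanog, Atf4, Creb3l1, Tmed1, Tmed4, Tmed5, Tmed7 and Tmed8.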

Additional observations from a re-analysis of the deposited data

How the results depend on the processing

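Alternatives were pseudocounts of 0.1 and 5, a minimum of 1 FPKM or none, median-of-ratios, TMM and quantile scaling, CPM of expected counts, and 1 length per gene. TMM, median-of-ratios and quantile scaling each moved the median of all genes in Lef1 P2 against empty vector P2 from 0.11 to -0.03, so ratios are read beside that median. Over all settings, 7 to 11 of the 45 genes were higher by 2-fold in that comparison, against 2.3% to 9.99% of all genes. At 1.5-fold 19 to 24 were higher, against 9.2% to 22.2% of all genes. None was lower by 2-fold (0.779% to 3.0% of all genes) or by 1.5-fold (4.97% to 13.6%). Sec23a and Kdelr3 were not among those at 2-fold with TMM or median-of-ratios scaling, nor Kdelr3 with a pseudocount of 5. The median of the 45 genes above that of all genes was 0.43 as deposited and 0.40 to 0.64, the highest with quantile scaling (0.64). In Lef1 P5 against Lef1 P2 it was -0.48 as deposited and -0.65 with quantile scaling, and the 23 genes lower by 1.5-fold became 14 with median-of-ratios and 15 with TMM scaling. In Lef1 P5 against empty vector P2 it ran from 0.06 to 0.08. There Kdelr3 was the 1 gene of the 45 lower by 1.5-fold in each setting, against 1.96% to 8.31% of all genes. Plain ratios above 1 numbered 41 of 45 in Lef1 P2 with TMM or median-of-ratios scaling, where Sec13 and Ergic1 joined Sec23b and Copz1 below 1. CPM, which ignores length, put Sec23a at 45.4%, 68.6% and 48.2% of the Sec23 sum in the 3 libraries. The causes were not tested. With 1 library per group, no replicate could be left out. Depth limits Copz2 and Tmed3 most.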
